A study of Homo sapiens with 2 samples.

Results

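The genes that license replication origins and drive the replication fork were followed in single cells of the Ewing sarcoma cell lines CHLA9 and TC71. The 45 genes were listed by what their products do, mostly at the origin or the fork, and not by any measured value. Earlier results of these data were known when the list was made. All 45 were found among the 33538 genes of both count matrices. The study set single-cell transcriptomes of Ewing sarcoma beside a map of developmental cell states, and it raised replication stress as a feature of these cells. CHLA9 was grown in Iscove's medium (IMDM) with 20% fetal bovine serum and an insulin, transferrin and selenium supplement, and TC71 in RPMI-1640 with 10% serum. The CHLA9 library was also sequenced a second time on another instrument, so the lines differ in medium and sequencing as well. Each line is 1 droplet library made with a 3′ kit, with no treatment and no replicate, so no test between the lines was possible and no p-value is given. Both are established lines, each standing for the tumor of 1 patient.

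Before a cell divides, each origin of replication is licensed in G1 phase: the origin recognition complex (ORC) binds DNA and, with CDC6 and CDT1, loads the ring-shaped helicase MCM2-7. At the start of S phase the loaded rings are turned into active helicases by CDC45, the GINS complex and MCM10, and polymerases, primase, the sliding clamp PCNA and its loader RFC, and the single-strand binding protein RPA are then assembled at the fork. Many of these genes are known targets of E2F transcription factors, whose activity is highest around the entry into S phase. The fusion oncoprotein EWSR1-FLI1 drives Ewing sarcoma, and its cells are known for fast proliferation.

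Since E2F is the textbook regulator of the list, the promoters were searched for 4 words of 8 letters, TTTCCCGC, TTTCGCGC, TTTGCCGC and TTTGGCGC, on both strands. The window ran from 250 bases before to 50 bases after each gene's start (RefSeq sequences, GRCh38.p14), and 38 of the 45 genes had an entry. For 9 of the 38 genes the table holds several starts, each with its own window, and a gene was counted when any of its windows held a word. By this count 21 of the 38 genes (55.3%) held at least 1 word, against 3.99% of all 27305 genes and 5.40% of 15843 protein-coding genes. Counted by window, 21 of 49 (42.9%) did, against 3.31% of all 35116 windows. The words can overlap, since a word on one strand can share letters with another word on the opposite strand. The 60-base stretches show the match in a helicase subunit with overlapping words (MCM6), a further helicase subunit (MCM3), a loader (CDT1), the clamp (PCNA) and a polymerase (POLA1). They are written 5′ to 3′ on the strand of the gene, the capitals mark the matched words, and all 5 lie upstream of the start that their window belongs to and outside every gene body of GENCODE 44.

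MCM6 (chr2:135876496-135876555, minus strand): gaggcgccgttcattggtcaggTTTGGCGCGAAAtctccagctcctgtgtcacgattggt

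MCM3 (chr6:52284883-52284942, minus strand): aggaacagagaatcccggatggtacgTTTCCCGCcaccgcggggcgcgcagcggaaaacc

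CDT1 (chr16:88803728-88803787, plus strand): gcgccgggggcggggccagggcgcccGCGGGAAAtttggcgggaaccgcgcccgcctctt

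PCNA (chr20:5126648-5126707, minus strand): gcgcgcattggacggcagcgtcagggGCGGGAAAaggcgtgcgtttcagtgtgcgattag

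POLA1 (chrX:24693755-24693814, plus strand): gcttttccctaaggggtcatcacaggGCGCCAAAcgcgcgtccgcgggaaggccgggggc

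In CDT1 and PCNA the capitals hold TTTCCCGC read on the opposite strand, and in POLA1 TTTGGCGC on the opposite strand. The words were found in 7 of 12 licensing genes with an entry, 3 of 5 helicase activation genes and 7 of 17 fork genes. The CCAAT word (CCAAT, both strands) was in at least 1 window of 23 of the 38 genes (60.5%) against 39.7% of all genes, and TTTGAA, the core of the CHR element of G2/M genes, in that of 1 gene (UNG; 2.63%) against 18.2%. A match says only that these letters stand in the window.

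The libraries held 5077 barcodes for CHLA9 and 8468 for TC71, and a barcode was taken as a cell from 5000 unique molecular identifiers (UMIs) and 2000 genes upward, with mitochondrial UMIs up to 15%. This left 4524 CHLA9 cells (89.1% of barcodes) with a median of 34656 UMIs, and 1729 TC71 cells (20.4%) with a median of 33370. In total these cells gave 174975302 UMIs for CHLA9 and 58355173 for TC71. The lines shared 16 barcode sequences, 3 of them among kept cells. All 8 Ewing sarcoma markers checked were detected in both lines, though not at like levels: CD99 stood at 1141 counts per 1000000 UMIs (CPM) in CHLA9 and 402 in TC71, while NKX2-2 (9.89 and 34.6 CPM), NR0B1 (48.1 and 122) and STEAP1 (73.2 and 239) were higher in TC71. Each of the 4 blood and 3 endothelial markers was under 1 CPM. Of the 6 fibroblast markers, COL1A2 stood at 203 CPM in CHLA9 and 0.0343 in TC71, and COL1A1 at 56.0 and 10.2, while PDGFRA was near 0 in both. Since no kept cells of a type that lacks the replication genes were at hand, background from free RNA could not be set beside the levels.

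The 45 genes together made up 0.516% of the UMIs of CHLA9 cells (5159 CPM) and 0.411% of those of TC71 cells (4111 CPM), with medians of 187 and 138 UMIs per cell. At a threshold of 1.5-fold, 13 of the 45 were higher in CHLA9 and 2, RFC3 and RPA3, in TC71. Across all 10774 genes with at least 5 CPM in a line, 32% were higher in CHLA9 by this threshold and 17.7% in TC71, so the share of replication genes higher in CHLA9 was near that of all genes. The median log2 ratio of CHLA9 over TC71 was 0.36 for the 45 genes, with 31 above 0, beside 0.21 for all genes, and single ratios are best read against that 0.21. With libraries scaled by the median of ratios, the counts were 9 and 3. The median log2 ratio of all genes was then 0.05, and the shares of all genes past the threshold were not counted under this scaling. In pooled cells, more cells in S phase and more RNA per cell cannot be told apart. The intervals given are exact 95% Poisson intervals, which cover counting error only. Since 3′ UMIs are not divided by transcript length, levels were compared between lines and not between genes.

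**Figure D1:**
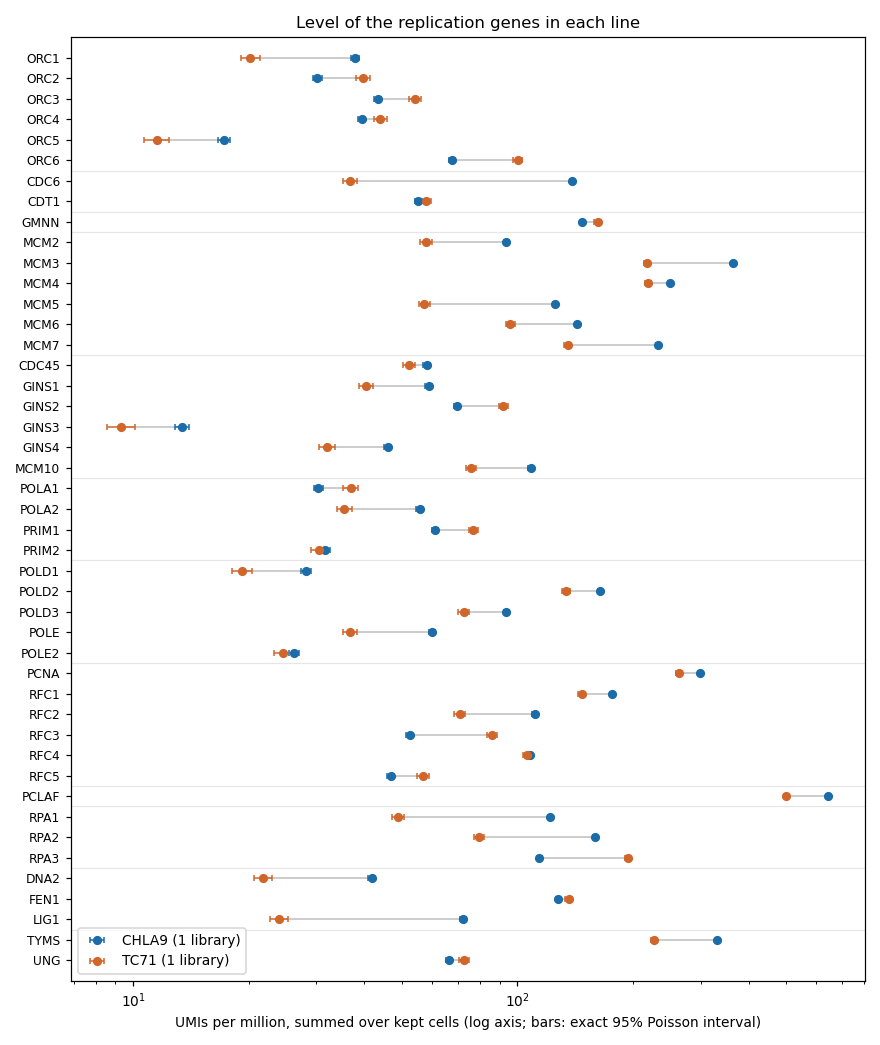
Level of each replication gene in CHLA9 (blue) and TC71 (orange) in CPM on a log axis, ordered by role, with 1 library per line and exact 95% Poisson intervals as bars. CDC6, LIG1, RPA1 and MCM5 show the widest gaps with CHLA9 higher, and RPA3 and RFC3 lie on the TC71 side.

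Among the licensing genes, the origin recognition complex was mixed. ORC1, the subunit whose protein is known to turn over during the cell cycle, stood at 37.9 CPM in CHLA9 (37.0 to 38.8) and 20.2 in TC71 (19.1 to 21.4), a log2 ratio of 0.91. ORC6, the smallest subunit, lay the other way at 67.5 and 100.1 CPM (log2 ratio -0.57), short of the 1.5-fold threshold. The log2 ratios of ORC2, ORC3 and ORC4 lay between -0.40 and -0.16, and that of ORC5, another subunit of the core complex, was 0.58. The loaders CDC6 and CDT1 differed from each other. CDC6, the ATPase that brings the helicase to ORC, had the widest gap of the 45 genes, with 139 CPM in CHLA9 (137 to 140.3) and 36.6 in TC71 (35.1 to 38.2), a log2 ratio of 1.92 (1.86 to 1.98). Its partner CDT1, the carrier of the MCM ring, stood at 55.3 and 57.8 CPM (log2 ratio -0.06). GMNN (geminin), the inhibitor of CDT1, stood at 148 and 162 CPM (log2 ratio -0.13).

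All 6 subunits of the MCM2-7 helicase had a log2 ratio above 0, and 4 of them, MCM2, MCM3, MCM5 and MCM7, passed 1.5-fold. Of all genes, 32% were higher in CHLA9 by this threshold, and the median log2 ratio of all genes was 0.21. The ratio of MCM4 lay below that median. MCM5 stood at 125 CPM in CHLA9 (124 to 127) and 57.3 in TC71 (55.3 to 59.2), a log2 ratio of 1.13. MCM3 stood at 364 and 217 CPM (log2 ratio 0.75), MCM7 at 232 and 135 (0.78) and MCM2 at 93.7 and 57.8 (0.70). MCM6, at 143 and 95.8 CPM, fell just short of the threshold, and MCM4 stood at 249 and 219 CPM (log2 ratio 0.19), so the subunits of one ring were not shifted by a common factor. The 6 helicase activation genes held no gene past the threshold in either direction, beside 32% and 17.7% of all genes, but 6 genes are too few for a contrast. The log2 ratios of MCM10, GINS1, GINS3 and GINS4 lay between 0.52 and 0.54, CDC45 stood at 0.15 and GINS2 at -0.40.

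At the fork, 7 of 21 genes were higher in CHLA9 and 2 in TC71, beside 32% and 17.7% of all genes. The share higher in CHLA9 was thus near that of all genes. RPA, the trimer that coats single-stranded DNA, was split. RPA1, the large subunit that holds most of the DNA contacts, stood at 122 CPM in CHLA9 (120.2 to 123) and 48.9 in TC71 (47.1 to 50.7), a log2 ratio of 1.32. RPA2, the middle subunit, stood at 159 and 79.5 CPM (log2 ratio 1.00), while RPA3, the smallest, stood at 114 CPM (112 to 116) and 194 (190.5 to 198), a log2 ratio of -0.77. The RFC clamp loader was split too, with RFC2 at 111 and 70.7 CPM (log2 ratio 0.65), RFC3 at 52.4 (51.3 to 53.5) and 85.9 (83.5 to 88.3; log2 ratio -0.71), RFC4 at 108 and 106 and RFC1 and RFC5 at log2 ratios of 0.26 and -0.28.

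Of the enzymes that finish Okazaki fragments, LIG1, the ligase that seals nicks, stood at 72.4 CPM in CHLA9 (71.1 to 73.7) and 24.0 in TC71 (22.8 to 25.3), a log2 ratio of 1.59. DNA2, a nuclease and helicase for long flaps, stood at 41.8 and 21.8 CPM (log2 ratio 0.94). FEN1, the flap endonuclease, was at a like level in both lines, 127 CPM (126 to 129) and 136 (133 to 139). PCNA, the clamp itself, stood at 298 and 264 CPM, and PCLAF, a small PCNA-binding protein, at 644 and 501, with log2 ratios of 0.18 and 0.36.

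Among the polymerases, POLE, the catalytic subunit of the leading-strand polymerase epsilon, and POLA2, the accessory subunit of polymerase alpha, passed the threshold with log2 ratios of 0.71 and 0.65. POLD1, the catalytic subunit of the lagging-strand polymerase delta, had a log2 ratio of 0.55, and its partners POLD2 and POLD3 had 0.29 and 0.37. POLA1, PRIM1, PRIM2 and POLE2, the remaining polymerase alpha, primase and epsilon subunits among the 45 genes, lay between -0.33 and 0.09. The epsilon subunits POLE3 and POLE4, which are not among the 45, were higher in TC71, with log2 ratios of -0.82 and -1.10. UNG, which cuts uracil out of DNA, stood at -0.13, and TYMS, which makes thymidylate, at 0.54.

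To follow the genes through the cell cycle, the cells of each line were ordered by the angle between a score of 36 G1/S and S genes and one of 50 G2/M genes, none of them among the 45, and cut into 10 bins of equal cell number. Position runs from 0 to 100% of the ordered cells, counted from the point where both scores are low. Since a bin holds an equal share of each line's cells, it need not hold the same phase in both lines. A curve with 1 maximum was fitted to each gene's bin levels, and its ratio of maximum to minimum is called the amplitude. In CHLA9 40 of the 45 genes had an amplitude of at least 1.5, and in TC71 23. Of all 9059 genes with at least 5 CPM in both lines, 19.9% reached that amplitude in CHLA9 and 25% in TC71, so the share of replication genes with a swing was above the background in both lines.

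In both lines, 22 genes reached the amplitude, against 10.1% of all genes. All 40 in CHLA9 peaked in the first 50% of the order, where 48.9% of all genes with the amplitude peaked, and in TC71 22 of 23 did, against 29.3% of all genes with the amplitude. The exception in TC71 was ORC2, with a peak at 58.8% and levels from 30.9 CPM in bin 1 to 51.6 CPM in bin 7. The sum over the 45 genes ran from 3394 CPM in bin 10 to 7444 CPM in bin 4 in CHLA9, and from 3277 CPM in bin 8 to 5143 CPM in bin 4 in TC71.

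**Figure D2:**
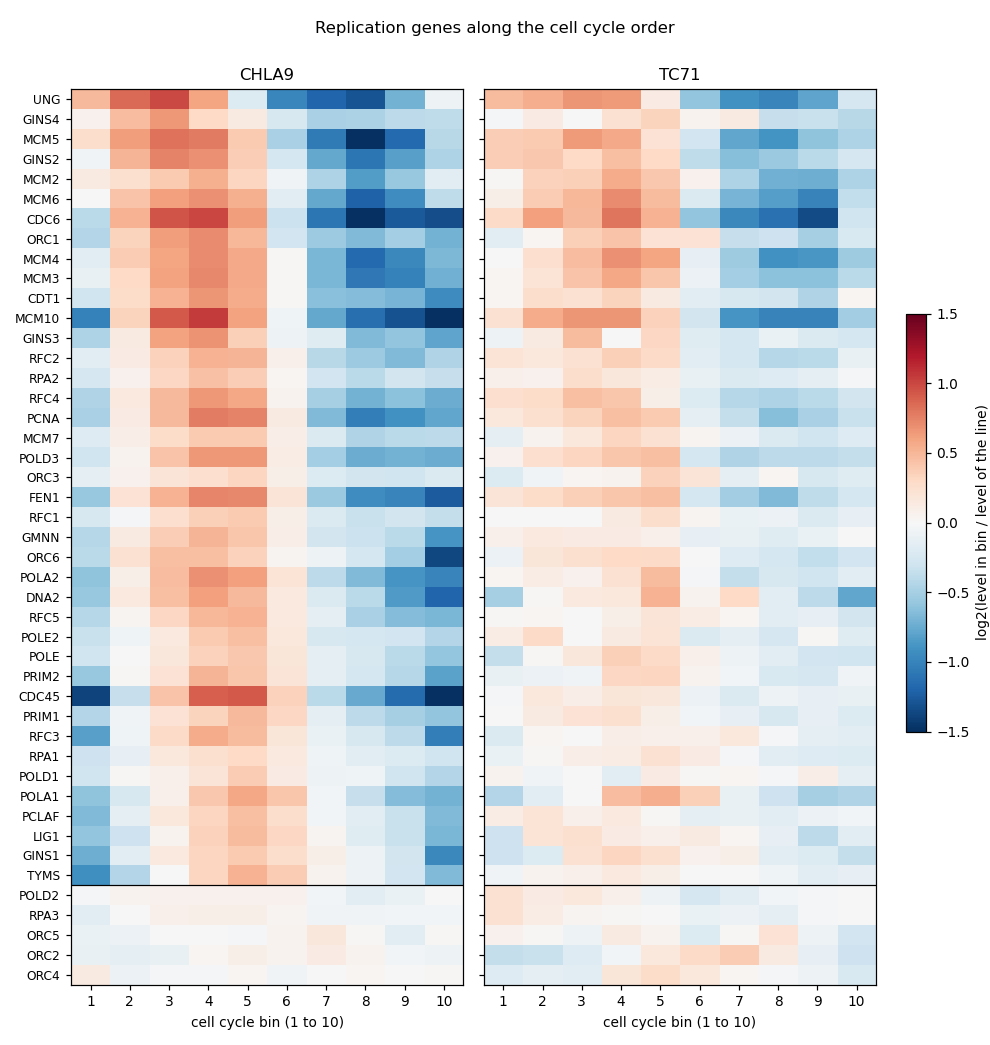
Level of each replication gene in 10 cell cycle bins (columns, in order from 1 to 10) over its level in the whole line, on a log2 scale, for CHLA9 (left) and TC71 (right). Rows are ordered by the fitted peak in CHLA9, and the 5 rows under the line (POLD2, RPA3, ORC5, ORC2 and ORC4) had an amplitude under 1.5 in CHLA9. Red marks levels above the line's own level, which for most genes fall in bins 2 to 5.

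The widest swings in CHLA9 were those of CDC6 (6.43-fold), MCM10 (6.33-fold), CDC45 (5.54-fold), UNG (4.94-fold) and MCM5 (4.65-fold). CDC6 ran from 47.7 CPM in bin 8 to 277 CPM in bin 4 of CHLA9, and from 14.5 CPM in bin 9 to 64.1 CPM in bin 4 of TC71. The swing of CDC6 in TC71 (3.89-fold) was the widest of that line, followed by MCM10 (3.47-fold) and UNG (3.38-fold). CDC45 was a contrast, with 18.2 CPM in bin 10 and 110.3 CPM in bin 5 of CHLA9, and 45.1 CPM in bin 7 and 59.4 CPM in bin 4 of TC71, where its amplitude was 1.26. The MCM subunits had amplitudes from 1.86 (MCM7) to 4.65 (MCM5) in CHLA9 and from 1.46 (MCM7) to 2.98 (MCM6) in TC71.

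The genes that did not reach an amplitude of 1.5 in CHLA9 were ORC2, ORC4, ORC5, POLD2 and RPA3, subunits of ORC, polymerase delta and RPA. ORC4 stayed between 37.0 and 43.2 CPM across all bins of CHLA9, and POLD2 between 148 and 172 CPM. Within ORC, the 3 subunits with a swing in CHLA9 were ORC1 (2.89-fold), ORC6 (2.18-fold) and ORC3 (1.55-fold). The ORC genes thus held both cycling and near-constant members, while the helicase, activation, primase and clamp genes all reached the threshold in CHLA9. Of the 18 genes with a promoter entry and the amplitude in both lines, 12 held an E2F word. Of the 3 with the amplitude in neither line (ORC4, ORC5 and POLD2), 0 did, but 3 genes are too few for a contrast. Genes with the amplitude in 1 line are in neither count, and over all 38 genes with an entry 21 held a word.

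The median amplitude of the 45 genes was 2.24 in CHLA9 and 1.52 in TC71, beside 1.25 and 1.31 for all genes. It was larger in CHLA9 for 40 of the 45 genes, and for 44.4% of all genes. The genes that set the order had smaller swings in TC71 too: the median amplitude of the S genes was 3.86 in CHLA9 and 2.32 in TC71, and that of the G2/M genes 9.75 and 5.52. The sum of 67 histone genes, which were not used for the order, swung 13.9-fold and 2.03-fold. TC71 cells also held fewer UMIs of the S genes (median 106 per cell, against 170 in CHLA9) and fewer cells. Barcodes under 5000 UMIs numbered 5869 in TC71 and 277 in CHLA9, with the 45 genes at 3599 and 1979 CPM. The part of the ordering, the depth, the cell number and free RNA in the smaller amplitudes of TC71 was not tested.

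By fitted peak, the order in CHLA9 began with UNG (19.9%), GINS4 (24.8%), MCM5 (26.0%), GINS2 (27.9%), MCM2 (28.6%) and MCM6 (29.2%). CDC6 (30.6%), ORC1 (31.3%), MCM4 (31.6%), MCM3 (31.9%), CDT1 (33.3%) and MCM10 (33.7%) followed, and then PCNA (35.1%), MCM7 (35.2%) and FEN1 (35.8%). Near the end came CDC45 (40.4%), PRIM1 (40.7%), RFC3 (41.2%), RPA1 (41.8%) and POLD1 (42.2%). POLA1 (43.9%), PCLAF (43.9%), LIG1 (45.9%), GINS1 (46.0%) and TYMS (48.4%) came last, next to the sum of the histone genes at 47.1%. After UNG, neighbors in the full order, of which not every gene is named here, lie within 3 percentage points of each other. No error could be set on a peak from 1 library.

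In TC71 the order began with UNG (22.8%), GINS2 (23.6%), RFC4 (24.8%), MCM5 (25.1%) and CDT1 (26.2%). POLE (39.3%), GINS1 (42.5%), POLA1 (42.9%), DNA2 (45.1%) and ORC2 came last, and the histone sum peaked at 38.8%. UNG thus opened the order in both lines, and POLA1 and GINS1 stood near its end in both.

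Over the 22 genes with the amplitude in both lines, the peaks differed by a median of 4.08 percentage points, and 14 of the 22 lay within 5 points. The Spearman correlation of the peaks between the lines was 0.68, given as a description, since the genes of a line share its library and its ordering. The widest gap was that of RFC4, at 34.7% in CHLA9 and 24.8% in TC71. The peak came earlier in TC71 for 18 of the 22. Since the zero of the order is set separately in each line, the lists of genes are compared within a line.

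**Figure D3:**
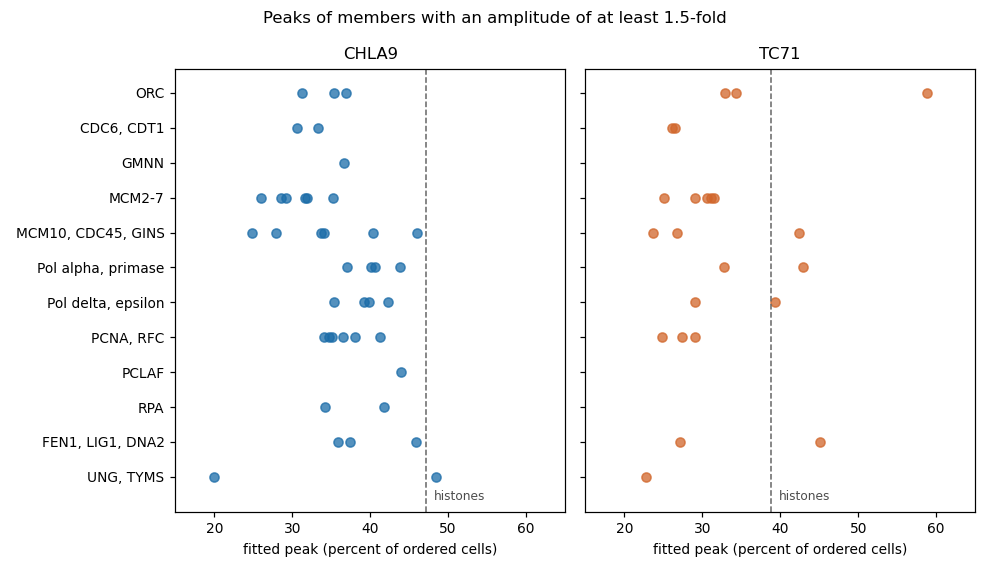
Fitted peak of each gene with an amplitude of at least 1.5, in percent of ordered cells, by role, in CHLA9 (left, 40 genes) and TC71 (right, 23 genes). Each point is 1 gene and the dashed line is the peak of the summed histone genes, at 47.1% and 38.8%. In CHLA9 the MCM2-7 points lie to the left of the primase points, and in TC71 the clamp and RFC points lie among the MCM2-7 points.

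Licensing genes (ORC1-6, CDC6, CDT1 and MCM2-7, 14 genes) were then set against fork genes (polymerases, primase, PCNA, RFC, RPA and the Okazaki fragment enzymes, 21 genes). In CHLA9 the median peak was 31.6% for the 11 licensing genes with the amplitude and 38.1% for the 19 fork genes, a difference of -6.47 percentage points. The 6 helicase activation genes stood between them, at 33.9%. In TC71 the medians were 30.8% for 10 licensing genes and 29.1% for 9 fork genes, a difference of 1.74 points in the other direction.

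Fewer fork genes had a peak to use in TC71, so the comparison was repeated with the 9 licensing and 9 fork genes that reached the amplitude in both lines. The difference was then -4.55 points in CHLA9 and 1.44 points in TC71. In TC71 the sign depended on the way a peak was taken: with all genes of both lists, whatever their amplitude, it was -0.612 points, and with the bin of the highest level as the peak it was -10 points, as in CHLA9. In CHLA9 the difference lay between -10 and -5.92 points under all 9 alternatives, and in TC71 no order of the lists can be given.

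Taken bin by bin, the lists differed in shape in both lines. The mean level of the 11 licensing genes over that of the 19 fork genes, each gene scaled to its own level in the line (geometric mean), was highest in bin 2 of CHLA9 at 1.24 and lowest in bin 8 at 0.740. In TC71 it was highest in bin 4 at 1.19 and lowest in bin 9 at 0.772. The ratio was thus above 1 in bins 1 to 4 and below 1 in bins 6 to 9 in both lines, while the fork genes had a flatter course. In TC71 the licensing genes themselves also stood highest in bin 4, at 1.40 times their level in the line. The ratio therefore gives no order of the lists in TC71.

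**Figure D4:**
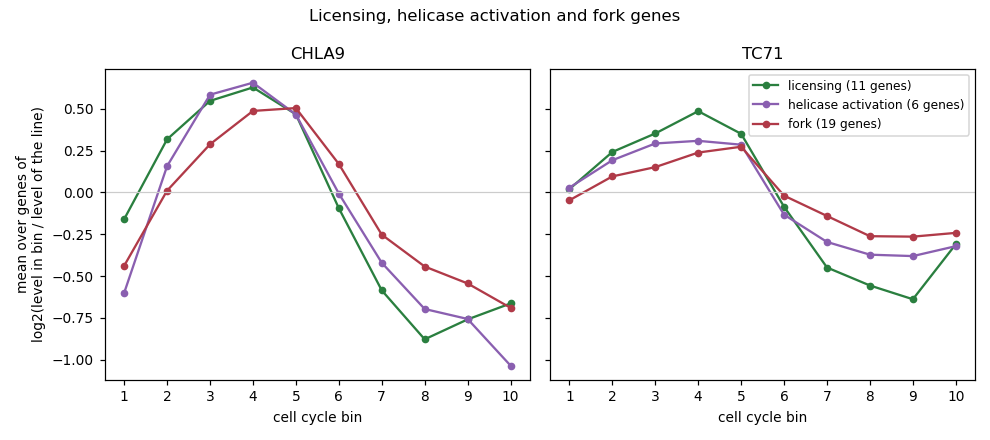
Mean over genes of the log2 level in a bin over the level in the line, for licensing genes (green, 11 genes), helicase activation genes (purple, 6 genes) and fork genes (red, 19 genes) in 10 cell cycle bins of CHLA9 (left) and TC71 (right); the genes are those with an amplitude of at least 1.5 in CHLA9, each line has 1 library and no error is drawn. The green line is above the red one in bins 1 to 4 and below it in bins 6 to 9 in both panels.

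The ratio between the lines changed along the order for several genes. For CDC6 the log2 ratio of CHLA9 over TC71 was 2.23 (2.11 to 2.34) in bins 3 and 4, where it stood at 271 and 57.9 CPM, and 1.12 (0.96 to 1.28) in bins 10 and 1, at 81.1 and 37.4 CPM. In bins 7 and 8 it was 1.68, so CDC6 was higher in CHLA9 in all of these bins. CDC45 changed direction, from 0.70 (0.57 to 0.82) in bins 3 and 4 to -1.30 (-1.48 to -1.13) in bins 10 and 1, and MCM10 did so too, from 0.84 (0.76 to 0.92) to -0.78 (-0.92 to -0.65). FEN1 went from 0.15 to -0.94 and PCLAF from 0.50 to -0.34. In bins 7 and 8 the log2 ratios were -0.27 for CDC45, 0.52 for MCM10, -0.23 for FEN1 and 0.40 for PCLAF. The ratio of MCM5 was above 0 throughout, at 1.33 in bins 3 and 4, 1.08 in bins 10 and 1 and 0.69 (0.54 to 0.84) in bins 7 and 8, and that of MCM2 was 0.70, 0.89 and 0.65. Of these genes, CDC6, CDC45, MCM10, FEN1, PCLAF and MCM5 had a smaller amplitude in TC71, for CDC45 1.26 against 5.54 in CHLA9. MCM2 had a larger one in TC71, 2.40 against 2.23 in CHLA9. The part of the amplitude, of the ordering and of free RNA in these log2 ratios between the lines was not tested.

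Whether the genes vary together from cell to cell was examined at an equal depth of 10000 UMIs per cell, reached by random thinning, which left 4510 CHLA9 and 1670 TC71 cells. All 45 genes had a mean of at least 0.1 UMI per thinned cell in both lines, and a UMI was found in 12.3% of CHLA9 cells for GINS3, the sparsest gene, and in 98.9% for PCLAF. Over the 990 pairs the median Pearson correlation was 0.0592 in CHLA9 and 0.0193 in TC71, beside 0.00073 and 0.0015 over all pairs of 7506 genes past the same limit. These are weak correlations in sparse counts from cells that share a library, and they are given as a description. They moved with depth: thinned to 5000 UMIs the medians were 0.0329 and 0.0102, and thinned to 20000 UMIs 0.0976 and 0.0308. The 7506 genes were not matched to the 45 genes in level. The part of the level in the higher medians of the 45 was not tested.

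The MCM2-7 genes had the highest median of the subsets examined, 0.202 in CHLA9 and 0.106 in TC71, against 0.0498 and 0.0131 among fork genes. The subsets also differed in level. In CHLA9 the MCM2-7 means ran from 0.95 (MCM2) to 3.62 (MCM3) UMIs per thinned cell. Those of the fork genes ran from 0.26 (POLE2) to 3.01 (PCNA). The part of the level in the higher correlation of MCM2-7 was not tested. The pairs with the highest lower value of the lines were MCM4 with MCM10 (0.322 and 0.220), MCM3 with MCM4 (0.381 and 0.217) and MCM4 with PCNA (0.340 and 0.208). MCM3 with CDC6 had the highest value of CHLA9, 0.388, and 0.145 in TC71. Within the 10 position bins the median over all pairs was 0.0128 in CHLA9 and 0.0071 in TC71, and for MCM2-7 0.0537 and 0.0409, so most of the correlation was lost once cells of like position were compared.

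By gene, MCM10, MCM3 and PCNA had the highest median correlation with the other 44 genes in CHLA9 (0.161, 0.160 and 0.157), and PCNA (0.0641) and MCM4 (0.0598) in TC71. ORC2, ORC4 and ORC5, which had little or no swing in CHLA9, had medians within 0.01 of 0 in both lines.

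**Figure D5:**
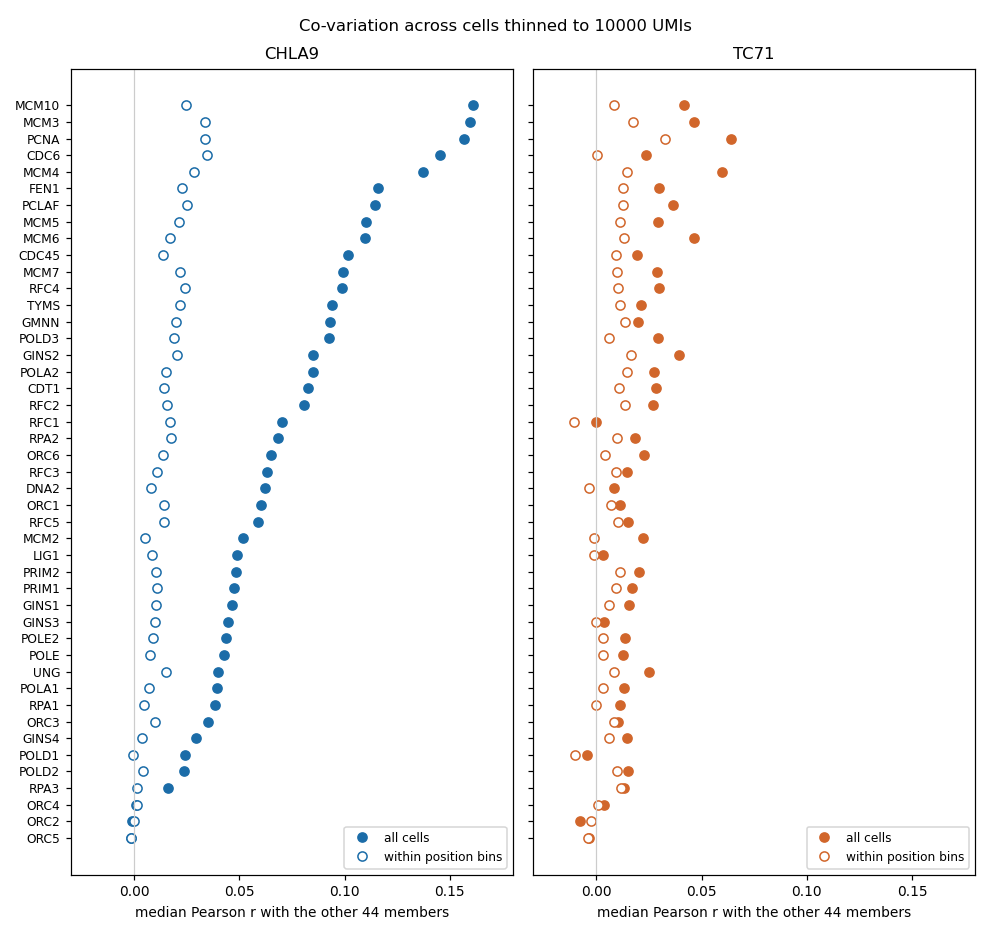
Median Pearson correlation of each replication gene with the other 44 genes across cells thinned to 10000 UMIs, in CHLA9 (left, 4510 cells) and TC71 (right, 1670 cells); filled points use all cells and open points compare cells within the 10 position bins. MCM10, MCM3 and PCNA lead in CHLA9, the values of TC71 are smaller, and the open points lie near 0 for most genes.

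Outside the list, the 10 genes whose thinned counts followed the summed score of the 45 genes most closely in both lines were HIST1H4C (Pearson r of 0.513 in CHLA9 and 0.335 in TC71, over cells), ATAD2, CCNE2, HIST1H1E, HIST1H1C, HELLS, FAM111B, CLSPN, WDR76 and EXO1. Of these, HIST1H4C, HIST1H1E and HIST1H1C are histone genes and CCNE2 encodes cyclin E2, which acts at the entry into S phase. ATAD2, CCNE2, HELLS, FAM111B and EXO1 were also among the S genes that set the order.

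A further list of 49 replication genes, such as those of the firing kinases and fork protection, was measured beside the 45. Of the 47 past the level limit, 11 were higher in CHLA9 and 6 in TC71. Both shares were below those of all genes, 32% and 17.7%. CLSPN (claspin, a fork checkpoint adaptor) stood at 305 CPM in CHLA9 and 128 in TC71, with DBF4B and CHTF18 also higher in CHLA9 (log2 ratios 1.52 and 1.47). MTBP, which takes part in origin firing, stood at 12.8 and 52.5 CPM, and DSCC1, a part of an alternative clamp loader, at 40.0 and 156 CPM. POLE4 had a log2 ratio of -1.10. The amplitude was reached by 30 of the 47 in CHLA9 and 26 in TC71, beside 19.9% and 25% of all genes.

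The swings of CDC25A and CHAF1A, a phosphatase of the G1/S transition and a subunit of the chromatin assembly factor, peaked early as in the 45 genes, at 30.8% and 33.2% in CHLA9. DBF4, the activator of the firing kinase CDC7, peaked late, at 64.5% in CHLA9 and 67.0% in TC71, and so did the helicase PIF1 (68.2% and 69.5%). POLH, a polymerase that copies past lesions, peaked at 54.9% and 64.5%. Of the 30 genes with the amplitude in CHLA9, 21 peaked in the first 50% of the order, against all 40 among the origin and fork genes. Of all genes with the amplitude in CHLA9, 48.9% did.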

How the data were processed

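From 10x Genomics 3′ libraries, the authors made UMI counts with Cell Ranger 3.1.0 and its built-in hg38 reference and deposited them raw. Reads that fit several genes equally well are not counted by that tool, so genes with close copies can be understated. No per-sample value column was left unmapped. Another cell line named in the design was not used here.

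The limits for cells were 5000 UMIs and 2000 genes from below and 15% mitochondrial UMIs from above. Doublets were not called; an alternative left out the 10% of cells with the most UMIs. The kept cells' depth was 174975302 UMIs in CHLA9 and 58355173 in TC71. Levels are UMIs summed over cells per 1000000 UMIs (CPM), with exact 95% Poisson intervals. Genes with at least 5 CPM in a line (levels) or in both (amplitudes) were considered, and 1.5-fold was the size called. Each anchor score was the log2 of the anchors' weighted share of a cell's UMIs, with weights of 1 over the square root of the mean share and a pseudocount of 0.05 of the mean. Amplitude and peak came from a Poisson fit of the first harmonic to the sums of 10 bins. Correlations used the natural log of 1 plus the counts thinned to 10000 UMIs (seed 1), for genes with a mean of at least 0.1 UMI. Coordinates are from GENCODE 44 and promoter windows from RefSeq (GRCh38.p14); MCM4, MCM5, GINS4, POLD3, RPA2, RPA3 and DNA2 had no promoter entry.

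The members and lists were chosen with earlier results of these data known. Beyond the 45 genes, the text names the 5 further replication genes with the largest amplitude (by the lower line), the 3 with the largest line difference in each direction, the 10 genes closest to the summed score and the histone sum. POLE3 is named as a further subunit of polymerase epsilon. No test was made between the lines, which have 1 library each. Alternatives covered cell filters, scaling, limits, folds, bins, anchors, the peak, depth and the seed. The fits were run on simulated Poisson counts with planted curves of the fitted form, and the intervals on simulated Poisson counts. Such counts have no spread beyond Poisson, so these runs cannot show how the fits and intervals hold in the cells. Python 3.11.15, numpy 2.4.6, scipy 1.17.1, pandas 2.3.3 and matplotlib 3.10.9 were used.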

Additional observations from a re-analysis of the deposited data

Results flagged for a closer look

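For 5 genes, the level in the bins around the start of the order (10 and 1) over that in the bins with the most G2/M transcripts (7 and 8) had opposite signs in the lines, with each interval for counting error away from 0. The log2 ratio was -0.45 in CHLA9 and 0.86 in TC71 for MCM10, -0.33 and 0.19 for GMNN, -0.26 and 0.23 for POLA2, -0.57 and 0.18 for PCLAF, and -0.13 and 0.58 for FEN1. This difference was not tested, since there is 1 library of each line. The share of all genes with opposite signs was not counted, so whether 5 genes is unusual cannot be said.

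The replication genes were also found in barcodes with under 5000 UMIs, which no comparison used. Their summed level was 1979 CPM over 277 such barcodes of CHLA9 and 3599 CPM over 5869 of TC71, against 5159 and 4111 CPM in the kept cells. No control was at hand for these barcodes.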

How the results depend on the processing

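With a fold of 2 in place of 1.5, 4 genes were higher in CHLA9 and 0 in TC71, and 12 reached the amplitude in TC71, as in both lines. A higher limit calls fewer genes. The shares of all genes were counted at the main settings only, so the counts under alternatives have no background beside them. The TC71 difference between licensing and fork peaks turned from 1.74 to -0.612 points with all genes whatever their amplitude and to -10 points with the bin of the highest level; the cause was not tested. The median pair correlation of 0.0592 in CHLA9 and 0.0193 in TC71 was 0.0329 and 0.0102 at 5000 UMIs and 0.0976 and 0.0308 at 20000. The remaining counts and medians stayed within 1.5 times, and the CHLA9 difference in peaks within 5 points, of their values under the alternatives run. Genes higher in CHLA9 numbered 9 to 15 and in TC71 2 or 3 at 1.5-fold, and the median amplitude was 2.16 to 2.43 in CHLA9 and 1.41 to 1.58 in TC71. The median log2 ratio of all genes moved from 0.21 to 0.05 with scaling by the median of ratios, and of 270 alternative values of the 45 log2 ratios, 93 left the counting interval of the main value; PRIM2, POLE2 and RFC4, all near 0, changed sign in some, and no gene past 1.5-fold did. Of 441 peaks under alternatives, 436 lay within 5 points; the other 5 were in TC71. No paired analysis was possible because there is 1 library of each line. Depth limits what single cells show: GINS3 had a UMI in 12.3% of CHLA9 cells and 9.82% of TC71 cells at 10000 UMIs.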
